A study of Mus musculus with 2 samples.

Results

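The genes described here write, maintain and erase methylation of cytosine in DNA, together with *Dppa3*, whose product protects methylated DNA from loss in the early embryo and keeps UHRF1 away from chromatin. These 9 genes of 37018 names on the array were chosen by name, with earlier results of these data known. They are *Dnmt1*, *Uhrf1*, *Dnmt3a*, *Dnmt3b*, *Dnmt3l*, *Tet1*, *Tet2*, *Tet3* and *Dppa3*. They were measured by 16 of 55681 probes, found through the accession of each probe. Of these, 14 probes were well above background and were tested among 33009 probes, and every one of the 9 genes was among the 24020 genes tested.

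The cells were mouse embryonic stem cells (mESCs) derived as clones from blastocysts of AIMP3 f/f;CreERT2 mice. In these cells tamoxifen (4-OHT) activates a Cre recombinase that deletes the floxed *AIMP3* gene, named *Eef1e1* in the files, which encodes a scaffold protein of the multi-aminoacyl-tRNA synthetase complex. The 2 AIMP3-depleted replicates received 2 μM 4-OHT for 4 days in medium with LIF, and each was hybridized in Cy5 to an array of its own. The control was 1 pool of RNA from 2 replicates of the same floxed, Cre-carrying cells given ethanol, and it was hybridized in Cy3 to both arrays. The cells were usually grown on feeder layers of mouse embryonic fibroblasts, and the study's methods name medium conditioned by such fibroblasts for the time of drug treatment. The dyes were not swapped and both arrays lay on 1 slide, so an effect of the dye on a probe and the effect of depletion cannot be told apart. The pool also leaves out the spread between control cultures. No source says whether the depleted replicates were separate cultures, so the p-values measure only the spread between these arrays.

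DNMT1 copies methylation to the new strand after replication, and UHRF1 brings it to hemimethylated CpG sites. DNMT3A and DNMT3B methylate unmodified DNA, and DNMT3L, which has no catalytic activity of its own, stimulates both. The TET enzymes oxidize methylcytosine, and the oxidized base is lost by dilution or by base excision repair. In mESCs these activities oppose each other, and *Dnmt3b*, *Dnmt3l*, *Tet1* and *Tet2* are highly active genes there, whereas *Tet3* is known mainly from the egg and from differentiated cells.

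The number of CpG sites near the start differed among the members. RefSeq promoters of assembly GRCm38.p6, 300 bases long with 250 before and 50 after the start, were given for 8 members at 15 starts. Those of *Dnmt3b* and *Dnmt3l* are shown because DNMT3L works as a partner of DNMT3B. Their CpG content and the sizes of their ratios on the arrays were far apart, but a link between CpG count and ratio was not tested. The *Dnmt3b* promoter lies at chr2:153649199-153649498 on the plus strand. The first listed *Dnmt3l* promoter lies at chr10:78042037-78042336 on the plus strand, and every CpG is in capitals. Which start of a gene is used in these cells was not measured.
Dnmt3b: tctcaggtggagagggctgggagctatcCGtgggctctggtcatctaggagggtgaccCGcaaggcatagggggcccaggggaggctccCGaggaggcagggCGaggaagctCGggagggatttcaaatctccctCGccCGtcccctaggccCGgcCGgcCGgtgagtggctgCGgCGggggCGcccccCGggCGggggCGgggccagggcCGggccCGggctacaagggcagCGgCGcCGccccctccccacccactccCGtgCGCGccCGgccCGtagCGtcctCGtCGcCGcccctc
Dnmt3l: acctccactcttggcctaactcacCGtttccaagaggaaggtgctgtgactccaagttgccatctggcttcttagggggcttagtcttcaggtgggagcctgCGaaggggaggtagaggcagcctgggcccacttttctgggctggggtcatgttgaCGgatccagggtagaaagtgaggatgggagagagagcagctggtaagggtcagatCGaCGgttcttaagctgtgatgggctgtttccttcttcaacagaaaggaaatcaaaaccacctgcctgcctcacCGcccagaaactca
The *Dnmt3b* promoter held 30 CpG sites, a number reached by 11.7% of 32851 promoters, for which the median was 7. The first *Dnmt3l* promoter held 6, a number reached by 56.4% of promoters, and its other starts held 4 and 3. The highest count was 57, in the *Tet2* promoter, a number reached by 0.152% of promoters, and the log2 ratio of *Tet2* was -0.06 after loess. At the *Dnmt3a* starts there were 46, 47 and 18 sites, at the *Dnmt1* starts 33, 12 and 2, and at the *Uhrf1* starts 12 and 33. *Tet1* held 17 and *Tet3* held 22. Both strands of these windows were searched for TAATCC, which OTX2 binds, for the E2F sequences TTTGGCGC and TTTCCCGC, and for the p53 decamer. TAATCC was in 0 of the 15 windows and in 7.06% of all promoters. TTTGGCGC was in 1 window, of *Dnmt1*, and in 0.514% of all promoters. TTTCCCGC and the p53 decamer were in 0 of the 15 windows and in 1.07% and 8.36% of all promoters. These matches are descriptions of the letters in these windows, and methylation itself was not measured in this experiment.

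The targeted gene was lower in the AIMP3-depleted RNA. After background correction and loess normalization within each array, the log2 ratio, taken as AIMP3-depleted RNA over the control pool, was -0.905 and -0.895 for *Eef1e1* in the 2 replicates, which is 53.6% of the control (limma, adjusted p = 5.11e-05). Over all 24020 genes the log2 ratios of the arrays correlated with r = 0.923, their median was 0.02, and the median SD between arrays was 0.048. In each channel 59.3% to 60.6% of spots were well above background, the median signal was 2.68 to 3.31 times the local background, and 0 spots were saturated. All 12 mESC markers were well above background in the control, but so were 12 of 12 primitive endoderm markers and 13 of 13 tested fibroblast markers.

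*Dnmt3b* and *Dppa3* were the members that fell past 1.5-fold, to 60.1% and 64.9% of the control. *Dnmt3a*, *Tet1*, *Uhrf1* and *Dnmt3l* fell by less, to 75.7%, 76.2%, 79.7% and 85.1% of the control, and *Dnmt1*, *Tet2* and *Tet3* did not pass the test. Past 1.5-fold with an unadjusted p under 0.05, the threshold used to call a gene changed, 2 of 9 members were lowered and 0 were raised after loess, and 0 were lowered with median centring in its place. In the background, 0.791% of all genes tested were lowered by this rule and 5.52% were raised. With an adjusted p under 0.05 at any fold, 6 of 9 members were lowered and 0 were raised, beside 23.7% and 30.6% of all genes (limma, with 6 and 0 members also at an unadjusted p under 0.05). The log2 ratio was negative on both arrays for 8 of 9 members and for 39.7% of all genes. The median of the members was -0.33, beside 0.02 for all genes. Without a correction for the dependence of the dyes on intensity, with each array only centred on its median, 5 of 9 members stayed negative and *Dnmt1*, *Dnmt3l* and *Tet2* turned positive. At an adjusted p under 0.05, 3 members were then lowered (*Dnmt3a*, *Dnmt3b* and *Dppa3*) and 2 were raised (*Tet2* and *Tet3*). In the table of the authors, 5 were lowered, without *Dnmt3l* (adjusted p = 0.065).

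**Figure D1:**
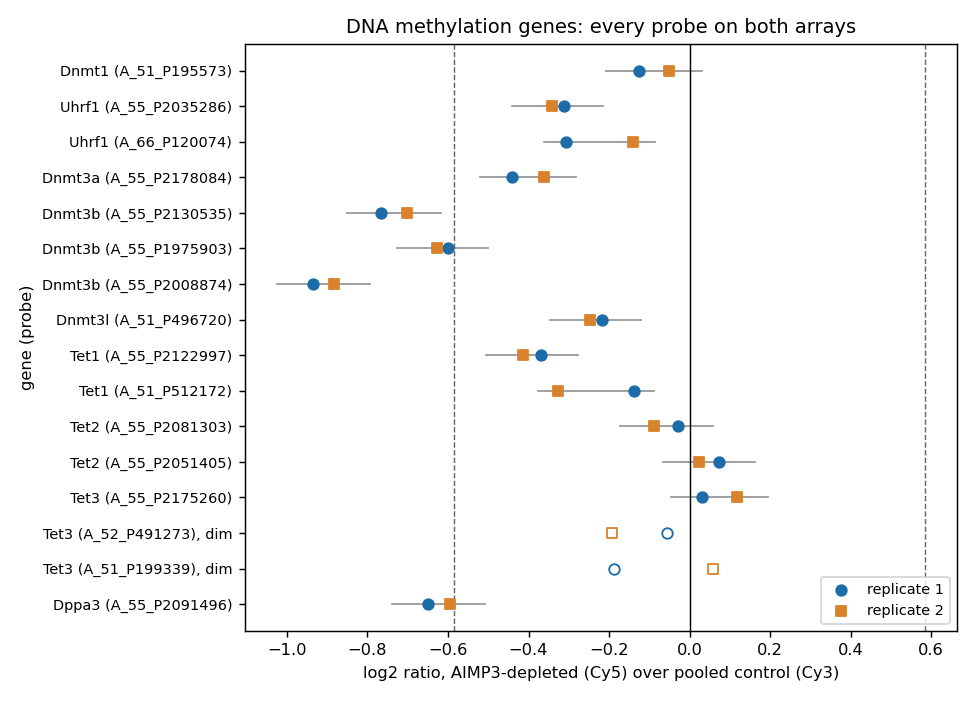
Log2 ratio of AIMP3-depleted over pooled control RNA for each of the 16 probes of the DNA methylation genes and Dppa3, with a circle for replicate 1, a square for replicate 2 and a grey line for the 95% interval of the mean from limma; open symbols are probes that were too dim to be tested. Dashed lines mark 1.5-fold, and the 3 Dnmt3b probes and the Dppa3 probe lie past it on the left, while Tet2 and Tet3 lie about 0; with median centring in place of loess, Dnmt1, Dnmt3l and Tet2 turn positive.

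Among the maintenance enzymes, *Uhrf1* fell and *Dnmt1* did not pass the test. *Dnmt1* had log2 ratios of -0.13 in replicate 1 and -0.05 in replicate 2, with a mean of -0.09 ± 0.05 (SD, n = 2). Its 95% interval ran from -0.20 to 0.02, and its adjusted p was 0.152 by limma. Both arrays were just below 0, by less than the interval of the mean is wide. *Uhrf1*, the reader of hemimethylated DNA that recruits DNMT1, had log2 ratios of -0.31 and -0.34, with a mean of -0.33 ± 0.02 (SD, n = 2; adjusted p = 0.00138). Its dimmer probe gave -0.31 and -0.14 (mean -0.22; adjusted p = 0.0185 over all probes). All 4 of these *Uhrf1* readings were negative, and the dimmer probe spread more between arrays. Under median centring *Uhrf1* was at -0.03 and no longer passed the test (adjusted p = 0.683), and *Dnmt1* was at 0.12.

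Among the enzymes of de novo methylation *Dnmt3b* fell the most after loess. The brightest *Dnmt3b* probe had Cy3 signals of 56320 and 58928 for the control and Cy5 signals of 64320 and 58550 for the AIMP3-depleted replicates. Before normalization the Cy5 signal was thus above Cy3 on the array of replicate 1 and just below it on that of replicate 2. The spots of both arrays were well under the brightest Cy5 signals, 415605 and 417585, and none was marked as saturated. After loess, the control was at a log2 signal of 16.26 and 16.20 and the depleted replicates at 15.49 and 15.50, with no overlap. The log2 ratios were -0.77 and -0.70, with a mean of -0.73 ± 0.05 (SD, n = 2), a 95% interval from -0.84 to -0.62 and an adjusted p of 9.15e-05 by limma. This placed *Dnmt3b* 68th from the lowest of 24020 genes.

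After loess each of the 3 *Dnmt3b* probes was past 1.5-fold by itself, whereas with median centring they were at -0.31, -0.32 and -0.65 and only the last was. The second had log2 ratios of -0.60 and -0.63 (mean -0.61; adjusted p = 0.000216 over all probes). The third and dimmest had -0.94 and -0.88 (mean -0.91; adjusted p = 7.9e-05 over all probes) and was at 53.2% of the control. For this probe the Cy5 signal was below Cy3 before any normalization, at 9236 against 10290 for replicate 1 and 8337 against 10711 for replicate 2. Of 1848 genes with at least 3 tested probes, 5 had every probe lowered past 1.5-fold after loess, *Dnmt3b* among them. Over all members, also after loess, 4 of 14 probes were lowered past 1.5-fold, beside 0.745% of all probes, and 10 had an adjusted p under 0.05 with a negative ratio, beside 22.8% of all probes.

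*Dnmt3a*, the other enzyme that sets new methylation, had log2 ratios of -0.44 and -0.36. The mean was -0.40 ± 0.06 (SD, n = 2; adjusted p = 0.000767), with a 95% interval from -0.51 to -0.29, so this gene fell by less than 1.5-fold. Its interval did not meet that of *Dnmt3b*. *Dnmt3l*, the partner without catalytic activity, had -0.22 and -0.25, with a mean of -0.23 ± 0.02 (SD, n = 2; adjusted p = 0.00541). *Dnmt3a* and *Dnmt3l* were each read by 1 probe. Under median centring *Dnmt3a* stayed negative at -0.21, whereas *Dnmt3l* was at 0.13. The study reported, as data not shown, no effect of depletion on *Dnmt3l* in mESCs, without naming the method or day.

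**Figure D2:**
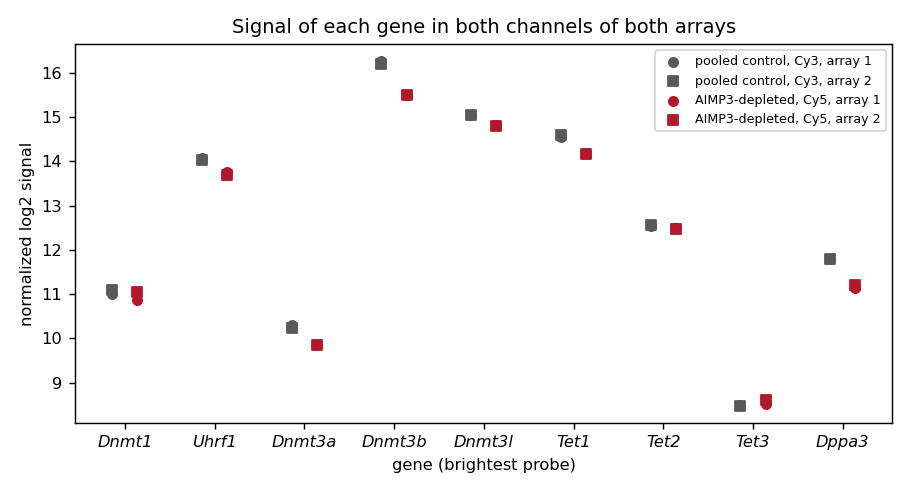
Normalized log2 signal of the brightest probe of each gene in the pooled control (Cy3, grey) and in the AIMP3-depleted replicates (Cy5, red), with circles for the array of replicate 1 and squares for that of replicate 2. The grey and red symbols of Dnmt3b and Dppa3 stand apart by more than those of the other genes; heights of different genes are not comparable, since each probe has its own brightness.

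Of the erasers, *Tet1* fell after loess, and *Tet2* and *Tet3* did not pass the test, but these calls changed with median centring. *Tet1*, the TET enzyme that dominates in mESCs, had log2 ratios of -0.37 and -0.41, with a mean of -0.39 ± 0.03 (SD, n = 2; adjusted p = 0.000728). Its second probe gave -0.14 and -0.33 (mean -0.23; adjusted p = 0.0186 over all probes), so both probes were negative on both arrays but differed in size. *Tet2* had -0.03 and -0.09 on its brighter probe, with a mean of -0.06 ± 0.04 (SD, n = 2), a 95% interval from -0.17 to 0.05 and an adjusted p of 0.316. Its other probe gave 0.07 and 0.02, and the probes lay on both sides of 0. *Tet3* had 0.03 and 0.12, with a mean of 0.07 ± 0.06 (SD, n = 2), a 95% interval from -0.04 to 0.19 and an adjusted p of 0.227. The remaining *Tet3* probes were dim, 1 of them not well above background in any channel and the other only on the array of replicate 2, and were not tested. Of the tested *Tet3* probe the control signal was 276.5 and 287 over a local background of 43 and 47, so *Tet3* was the member measured nearest to background. Under median centring *Tet1* was at -0.06 and no longer passed the test (adjusted p = 0.426). *Tet2* at 0.18 (adjusted p = 0.021) and *Tet3* at 0.21 (adjusted p = 0.00518) then passed it as raised, where the median of all genes was 0.18.

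*Dppa3* had Cy3 signals of 2816 and 2901 for the control and Cy5 signals of 3005 and 2678 for the AIMP3-depleted replicates. After loess the control was at a log2 signal of 11.80 on both arrays and the depleted replicates at 11.15 and 11.21, with no overlap. The log2 ratios were -0.65 and -0.60, with a mean of -0.62 ± 0.04 (SD, n = 2), a 95% interval from -0.73 to -0.51 and an adjusted p of 0.000146 by limma. The mean was 1.54-fold lower and the interval reached to both sides of 1.5-fold. *Dppa3* was 142nd from the lowest of all genes and was read by 1 probe.

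In the order of their log2 ratios after loess the members ran from *Dnmt3b* through *Dppa3*, *Dnmt3a*, *Tet1*, *Uhrf1*, *Dnmt3l*, *Dnmt1* and *Tet2* to *Tet3*. The 95% intervals of every pair of neighbours in this order overlapped. On the arrays themselves the readings of *Dnmt3a* and *Tet1* overlapped, as did those of *Dnmt1* and *Tet2*, and the other neighbours did not. With the processed signals, in the authors' table and with median centring, *Dppa3* was lower than *Dnmt3b*.

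The brightness of a probe bears on these ratios, since the Cy5 signal rose over Cy3 with intensity before loess. Genes with a mean log2 intensity between 15 and 16, where *Dnmt3b* lies, had a median log2 ratio of -0.06 after loess, and 0.856% of them were lowered past 1.5-fold. Above 16 the median was 0.16, so loess left a rise at the brightest end. With median centring the median of the genes between 15 and 16 was 0.34, and *Dnmt3b* was at -0.31. The genes between 10 and 12, where *Dppa3* and *Dnmt1* lie, had a median of 0.01 after loess and 0.22 with median centring, under which *Dppa3* was at -0.41. *Dnmt3l* and *Tet1*, between 14 and 15, were among genes with a median of -0.07 after loess and 0.26 with median centring.

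**Figure D3:**
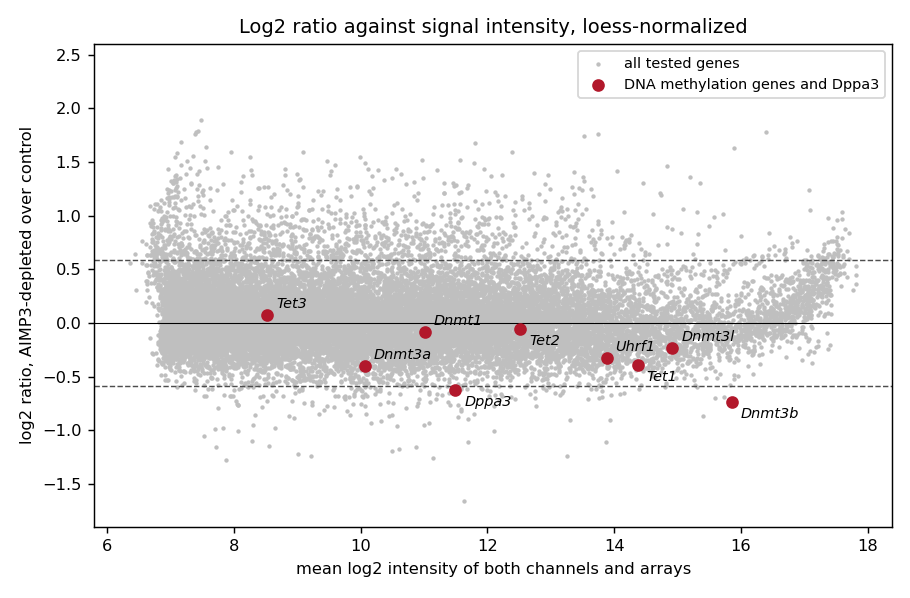
Mean log2 ratio of AIMP3-depleted over control against the mean log2 intensity of both channels and arrays, after loess, for 24020 tested genes (grey) and the 9 DNA methylation genes (red). Dashed lines mark 1.5-fold; Dnmt3b at the bright end and Dppa3 in the middle lie below the lower line, and the cloud of all genes bends upward above an intensity of 16. With median centring in place of loess, Dnmt1, Dnmt3l and Tet2 turn positive.

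The scanner software's own processed signals, which carry another background and dye correction, gave *Dnmt3b* -0.71 and *Dppa3* -0.72. The authors' deposited table, which is this processed ratio plus a constant of 0.0404 and 0.0395 on the 2 arrays, gave -0.67 and -0.68. Under both, these genes remained past 1.5-fold with an unadjusted p under 0.05, although 3.23% and 2.57% of all genes were then lowered past it. Under median centring *Dnmt3b* and *Dppa3* stayed negative on the mean but were not past 1.5-fold, with 0 members called. The median of all genes was 0.18 in that setting. Taken relative to the median of all genes in each setting, *Dnmt3b* ran from -0.785 to -0.486 over 12 settings and *Dppa3* from -0.695 to -0.586.

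**Figure D4:**
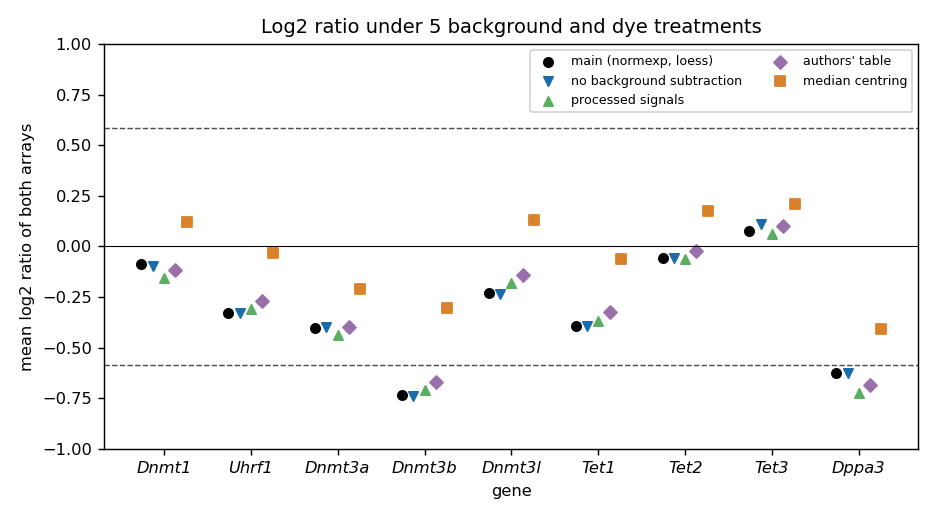
Mean log2 ratio of both arrays for each gene under 5 treatments of background and dye: normexp with loess (black), no background subtraction (blue), the scanner software's processed signals (green), the authors' table (purple) and median centring (orange). Dashed lines mark 1.5-fold. Median centring moves every gene up, and Dnmt1, Dnmt3l and Tet2 pass to the positive side, while the other treatments lie close together.

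Beside the members, 13 lists with 172 genes of the surrounding pathways and of cell types were read. Lists are described by their counts and medians, beside a median of 0.02 over all genes. Their counts stand beside shares of all genes of 5.52% raised and 0.791% lowered past 1.5-fold, and of 30.6% raised and 23.7% lowered with an adjusted p under 0.05. Genes named from them that did not pass 1.5-fold were chosen after their values were seen. Median centring moved the median of each list up, and the value under it is given for each list whose median was below 0 after loess or close to it.

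Of 9 partners of maintenance methylation, 0 passed 1.5-fold, 5 fell and 1 rose with an adjusted p under 0.05, and the median was -0.27 (0.04 under median centring). *Lig1*, the ligase that joins Okazaki fragments, was at -0.47, *Hells*, a chromatin remodeler needed for DNA methylation, at -0.34, and *Pcna*, the clamp of the replication fork to which DNMT1 binds, at -0.33. *Uhrf2*, the paralog of *Uhrf1*, was at 0.20 with an adjusted p of 0.00981, but its other probe was at -0.08. DNA replication genes moved beside *Uhrf1* and these partners. Of 18 such genes 14 fell and 0 rose with an adjusted p under 0.05 (limma, with the same counts at an unadjusted p under 0.05), 0 passed 1.5-fold, and the median was -0.29 (-0.01 under median centring). *Mcm6*, a subunit of the replicative helicase, was the lowest at -0.58, just short of 1.5-fold. It passed 1.5-fold in replicate 2 alone (-0.59) and without background subtraction, with 1 gene called in each. The part of replication in the *Uhrf1* value was not tested.

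Of 12 genes of heterochromatin or of the targeting and control of DNA methylation, 0 passed 1.5-fold. With an adjusted p under 0.05, 3 rose and 3 fell, near the shares of all genes. The median was -0.04 (0.24 under median centring, with 1 raised past 1.5-fold). Of 14 genes of CpG readers or of proteins with a related domain, 13 were tested. Of these, 3 were raised past 1.5-fold, beside 5.52% of all genes, and 0 were lowered. With an adjusted p under 0.05, 7 rose and 1 fell, beside 30.6% and 23.7% of all genes, and the median was 0.17. Under median centring 5 were raised past 1.5-fold, and with the mean of all probes 1 was. *Mbd5* is listed for a domain of the methyl-CpG binding family, not for known binding of methylated DNA. Read by 1 probe, it was raised to a log2 ratio of 0.90 and 0.93 (mean 0.91, adjusted p = 5.09e-05 by limma). *Zbtb4*, a zinc finger protein that binds methylated DNA, was at 0.86 and 0.83 (mean 0.85), but its other probe was at 0.19. *Mbd2*, which recruits the NuRD complex to methylated DNA, was at 0.58 and 0.63 (mean 0.60), with 0.36 on its other probe. With the mean of all probes in place of the brightest, *Zbtb4* was at 0.52 and *Mbd2* at 0.48, both short of 1.5-fold. In replicate 1 alone *Mbd2* was just short of it.

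Of 18 genes of base excision repair and deamination, which complete the removal of oxidized or deaminated bases, 1 was raised past 1.5-fold (3 under median centring) and 0 were lowered. A further count with an adjusted p under 0.05 gave 3 that rose and 6 that fell, and the median was -0.09 (0.09 under median centring). The count of 1 of 18 is near the 5.52% of all genes that were raised. The raised gene was *Gadd45g*, a stress-induced gene of the Gadd45 family, at 0.74 and 0.82 (mean 0.78; adjusted p = 8.22e-05). *Gadd45b* was at 0.46 and *Gadd45a* at -0.15. *Tdg*, the glycosylase that excises the oxidized bases TET enzymes make, was at -0.34 and -0.0049 in the 2 replicates and did not pass the test (adjusted p = 0.113). Of 12 genes that supply the TET cosubstrate 2-oxoglutarate or act on TET enzymes, 0 passed 1.5-fold, 5 fell and 1 rose with an adjusted p under 0.05, and the median was -0.08 (0.17 under median centring).

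Of 23 genes around the methyl donor S-adenosylmethionine, which supply it, use it or act in linked pathways, 21 were tested. Of these, 1 was lowered past 1.5-fold, 0 were raised, and 10 fell and 4 rose with an adjusted p under 0.05. With either the processed signals or the values of the authors, 3 were lowered and 1 was raised past 1.5-fold, and under median centring 0 and 0. With the processed signals the lowered genes were *Bhmt2* at -1.37, *Mthfd1l* at -0.68 and *Gnmt* at -0.67, and *Nnmt* at 0.59 was raised. *Bhmt2* was well above background in only 2 of 4 readings and was at -0.49 after loess. The median of the list was -0.14 (0.08 under median centring). The gene lowered after loess was *Mthfd1l*, a mitochondrial enzyme of folate metabolism, at -0.56 and -0.63. Its mean was -0.59 (adjusted p = 0.000183 by limma), and its other probe was at -0.55. Replicate 1 alone was short of 1.5-fold, as was the mean of both probes at -0.57.

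Germline genes whose promoters are known as targets of DNA methylation were also read. Of 16 such genes 12 were bright enough to be tested, so the list as tested leaves out its dimmest genes. Of the 12, 0 passed 1.5-fold in either direction, and 7 fell and 0 rose with an adjusted p under 0.05. Their median was -0.17 (-0.06 under median centring). *Sycp3*, of the synaptonemal complex, was at -0.47 and *Mael*, of the piRNA pathway, at -0.47. *Dazl*, a classical germline target, was at -0.17 in both replicates. At an unadjusted p under 0.05 the limma counts were also 7 that fell and 0 that rose.

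*Dppa3* lies in a cluster of pluripotency genes with *Nanog*, *Gdf3* and *Slc2a3*, and its family name is shared by genes of other loci. Of 8 tested genes of this list of 9, which leaves *Dppa3* out, 0 passed 1.5-fold, 3 rose and 1 fell with an adjusted p under 0.05, and the median was 0.01 (0.27 under median centring, with 2 raised past 1.5-fold). *Nanog* was at -0.31 and -0.44 (mean -0.38), but its other probe was at 0.06. *Gdf3*, a ligand of the TGF-beta family, was at 0.03 and *Slc2a3*, a glucose transporter, at 0.41. *Dppa5a*, an RNA-binding protein of mESCs, was at 0.50. *Dppa2* was at 0.22 and *Dppa4* at -0.10, with probes of either sign for *Dppa2*. *Dppa3* at -0.62 was below every tested gene of this list.

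**Figure D5:**
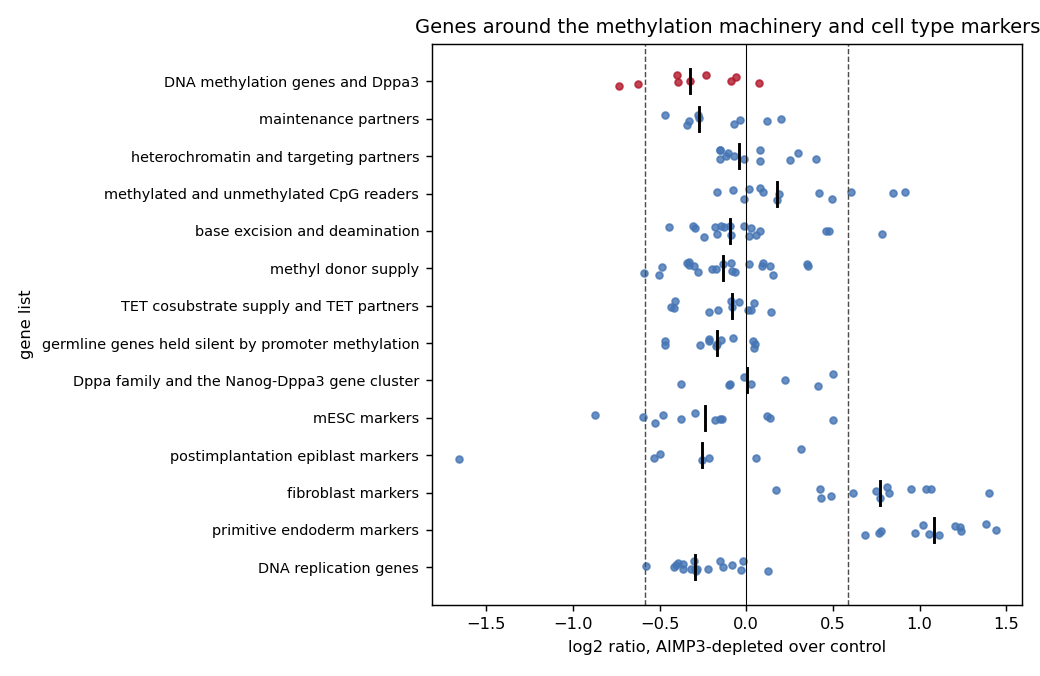
Mean log2 ratio of each tested gene (points) in the 9 DNA methylation genes (red) and in 13 lists of related pathways and cell types (blue), with the median of each list as a black bar and 1.5-fold as dashed lines. Primitive endoderm and fibroblast markers lie on the right, at medians of 1.08 and 0.77, and the medians of the members, DNA replication genes and mESC markers lie left of 0, although with median centring the members' median is -0.03 and that of mESC markers turns positive.

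Markers of cell types moved with the members. Of 12 mESC markers 2 were lowered past 1.5-fold and 0 were raised, 9 fell and 2 rose with an adjusted p under 0.05, and the median was -0.24 (0.07 under median centring, with 0 lowered and 1 raised past 1.5-fold). The lowered genes were *Fgf4*, a growth factor of the pluripotent epiblast, at -0.85 and -0.89 (mean -0.87), and *Tdgf1*, a coreceptor for Nodal, at -0.55 and -0.64 (mean -0.59). *Tdgf1* was short of 1.5-fold in replicate 1 alone, and at -0.55 with the processed signals and -0.51 in the authors' table. *Pou5f1* was at -0.64 and -0.32 and *Sox2* at -0.51 and -0.54. The summed level of these markers was 18.40 and 18.39 in the control and 18.42 and 18.37 in the depleted replicates on the log2 scale. This sum is weighted to its brightest probe, that of *Dppa5a*, which has a log2 intensity of 17.3 and a log2 ratio of 0.50, and does not stand for the list. Of 7 postimplantation epiblast markers, 1 was lowered past 1.5-fold and 0 were raised, 5 fell and 1 rose with an adjusted p under 0.05, and the median was -0.25 (-0.07 under median centring). With either the processed signals or the values of the authors, 3 were lowered past 1.5-fold. In replicate 1 alone 2 were, with *Sox3* at -0.66. The gene lowered after loess was *Otx2*, a homeobox factor of the primed epiblast, at -1.65 and -1.67. Its mean was -1.66 (adjusted p = 3.55e-05 by limma), the lowest log2 ratio of all 24020 genes. After loess *Fgf5* was at -0.25 and *Pou3f1*, also named *Oct6*, at -0.22. Unlike these values, the study reported, as data not shown, no effect of depletion on *Fgf5*, *Otx2* and *Oct6* in mESCs. It did not name the method or day of that measurement.

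Markers of other cell types rose. All 12 primitive endoderm markers were raised past 1.5-fold, with a median of 1.08, led by *Sox17* at 1.44, *Foxa2* at 1.38, *Sparc* at 1.24, *Col4a1* at 1.24 and *Gata6* at 1.20. Their summed log2 level went from 17.49 and 17.54 in the control to 18.59 in both depleted replicates. Of 13 tested fibroblast markers of 14, 9 were raised past 1.5-fold and 0 were lowered, with a median of 0.77, led by *S100a4* at 1.40, *Col1a1* at 1.06, *Col1a2* at 1.04, *Col3a1* at 0.95 and *Twist2* at 0.82. Their summed log2 level went from 16.60 and 16.61 to 17.21 and 17.17. These sums too are weighted to their brightest probes, those of *Sparc* at a log2 intensity of 17.07 and of *Fn1* at 16.37 with a log2 ratio of 0.43, and do not stand for the lists. In this bulk RNA, fewer or more cells of a type and less or more RNA per cell cannot be told apart. Whether cells of these other types were present was not tested. Nor was their part in the values of *Dnmt3b*, *Dppa3* and the other members.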

How the data were processed

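Agilent 2-colour arrays measured RNA of 2 AIMP3-depleted replicates (Cy5) against 1 control pool (Cy3). The authors deposited scanner output of Feature Extraction (version 11.5.1.1 in the file header, where the methods name another), with the median intensity of each spot and its local background, not normalized. It also holds processed intensities and a log10 ratio that the authors deposited with them. The authors' deposited table holds log2 ratios made with GeneSpringGX, and within 0.01 of the processed ratio plus a constant for 99.8% of tested probes, with medians of 0.0909 and 0.111. Its centring is not stated in the sources used here.

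Background was corrected with normexp (offset 50) in limma 3.58.1 under R 4.3.3, and arrays were normalized by loess with control spots at weight 0. Outlier spots (215 and 227) were left out. Tested probes had, on each of the arrays, a signal well above background in Cy3 or Cy5, and the brightest probe stood for a gene. Names came from accessions in a RefSeq table of GRCm38.p6, which held 27509 of 55681 probes, and the array itself was annotated on another build. Mean log2 ratios were tested against 0 with lmFit and eBayes (5.24 prior degrees of freedom), with Benjamini-Hochberg adjustment over all genes. With 2 arrays, their number limits the precision.

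The members and the gene lists were chosen with earlier results of these data known. Named were all members with all probes, *Eef1e1*, and up to 5 genes of each list past 1.5-fold. Other genes were named after their values were seen. Alternatives changed the background, dye correction, filter, probe rule, outliers, test and thresholds, and left out each replicate.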

Additional observations from a re-analysis of the deposited data

How the results depend on the processing

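*Dnmt3a*, *Uhrf1*, *Tet1* and *Tet3* kept their direction under every alternative tried, although with median centring *Uhrf1* and *Tet1* no longer had an adjusted p under 0.05 and *Tet3* did, and *Dnmt3b* and *Dppa3* kept theirs and lost the 1.5-fold call only under median centring and at a 2-fold threshold. With median centring in place of loess, *Dnmt1* was at 0.12, *Dnmt3l* at 0.13 and *Tet2* at 0.18, *Dnmt3b* at -0.31 and *Dppa3* at -0.41, 0 members, 65 genes lowered and 2823 raised, and 97.7% of changed genes were raised, against 190, 1327 and 87.5% after loess. The all-gene median was 0.18, and at the brightest probes, above a log2 intensity of 16, it was 0.66. Processed signals lowered 776 genes and raised 1943 (71.5% raised), and the authors' table lowered 617 and raised 2130 (77.5% raised). The methods' t-test lowered 128 and raised 864, with 0 genes at an adjusted p under 0.05, and gave *Dnmt3b* and *Dppa3* unadjusted p-values of 0.0278 each. At 2-fold, 0 members, 17 genes lowered and 281 raised were called. At an adjusted p under 0.05 and any fold, 6 members and 5689 genes were lowered and 7339 raised. Leaving out 1 replicate left 1 array with no test, on which 2 members and 200 to 253 genes were lowered past 1.5-fold and 1323 to 1398 raised. Replicates alone ranged from -0.77 to -0.70 for *Dnmt3b* and from -0.65 to -0.60 for *Dppa3*. With replicate 1 alone *Mthfd1l*, *Mbd2* and *Tdgf1* were short of 1.5-fold and *Sox3* and *Pou5f1* were past it, as *Mcm6* was with replicate 2 alone. No paired analysis was possible because both arrays hold the same group against 1 pool. The 2 dim *Tet3* probes limit what can be said of that gene, and a dye effect on a probe cannot be told apart from depletion without a swap.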
